A study of Mus musculus with 31 samples.

Results

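Wild-type mouse embryonic stem cells (mESCs) grown in 2i + Lif medium were profiled by RNA-seq in 2 libraries, called replicates 1 and 2 here. They are 2 of the 31 samples of the series, whose RNA-seq covers 12 libraries of 4 genotypes, and are those whose labels say RNA-seq of wild-type cells. All 15034 genes of the expression table had a value above 0 in both libraries, and they were ranked by the mean of these libraries. A gene is in this table only if its value was above 0 in all 12 RNA-seq libraries. The cells derive from ES-E14TG2a, an established line of mESCs. Per the study's methods the cells it calls WT come from a clone in which both *Trim71* alleles were edited to add an N-terminal FLAG tag, while the labels say only wild-type. Their medium held 3 µM CHIR99021, 1 µM PD0325901, 1000 U/mL mouse Lif and 2% fetal bovine serum per the methods; the labels also list a serum and Lif medium. The labels call them biological replicates, and the sources used here do not say whether they were separate cultures.

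mESCs are the in vitro counterpart of the pluripotent cells of the early epiblast. In 2i medium, CHIR99021 inhibits the kinase GSK3, which otherwise marks beta-catenin for destruction, and PD0325901 inhibits MEK, the kinase that activates ERK downstream of fibroblast growth factors. Lif signals through its receptor and Jak kinases to Stat3. Cells held this way are described as naive, with a transcription factor network around Oct4 (encoded by *Pou5f1*), Nanog, Esrrb, Klf4 and Tfcp2l1.

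The deposited values are in TPM, a unit that divides the reads of a gene by its length and scales each library to a fixed total. Low values showed which length was used. Multiplied by the genomic span of the longest curated RefSeq transcript, introns included, 91.4% of the 1318 low values of replicate 1 and 92.7% of the 2098 low values of replicate 2 fell on whole multiples of 1 step per library, within 0.05 of a multiple. With the exon length in place of the span, the low values were 3799 and 4206 in number, and 12.3% and 13.3% of them fell on such multiples, where evenly spread values give 10%. The TPM of an intron-rich gene was therefore divided by a length that its mRNA does not have, and the span exceeded the exon length 8.01-fold at the median gene. From the step, replicate 1 held 34564445 reads in genes and replicate 2 held 20971731. Each gene is given below with its deposited TPM in replicates 1 and 2, in that order, and levels of different genes are compared only in exon-length TPM, obtained by multiplying each TPM by the span, dividing by the exon length and rescaling to the same total, as mean ± SD (n = 2). This scale could be computed for 15017 genes. Whether reads within introns were counted is not known, and the span used for abundant genes could not be read from the values. Of protein-coding genes inside another gene of the same strand 5.33% were measured, against 68.2% of those not inside another gene. Whether this follows from counting over introns was not tested. If intron reads were counted, exon-length TPM overstates genes whose exons are a small share of their span. The span of *Boll*, given below, is 74.1-fold its exon length. Over the 15017 genes the orders of levels on the 2 scales had a Spearman's rho of 0.898. At the median, the exon-length level was 0.225-fold the deposited one for the 467 single-exon genes. It was 2.46-fold for the 6859 genes of 10 or more exons.

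The labelled cell type was checked against marker genes. Of 10 mESC markers, 9 were measured and each was at 10 TPM or more, with exon-length levels between 235 TPM for *Tfcp2l1* and 2191 TPM for *Pou5f1*. *Sox2*, the remaining one, was not analysed here. The 8 primitive endoderm markers summed to 8.38 and 4.21 TPM, with *Gata4*, the highest of them, at 7.02 ± 3.02 exon-length TPM. Fibroblast markers, which would mark feeder cells, summed to 1.32 and 3.38 TPM over the 3 measured of 7, and none of these 3 reached 1 TPM. The 3 neural, 4 mesoderm and 7 trophoblast markers measured held a few genes at a moderate level, among them *Tubb3*, *T* and *Eomes*. *Eomes*, a T-box factor of trophoblast and mesendoderm, stood at 52.9 and 46.1 TPM. The 2 measured genes of the 2-cell-like state were at or below 0.698 exon-length TPM, the 4 germ cell genes at or below 6.60 ± 4.49 exon-length TPM, the value of *Dazl*, and of 4 blood markers only *Cd68*, a macrophage and lysosome gene, was measured, at 58.7 and 53.8 TPM. Markers of the primed epiblast summed to 288 and 190.4 TPM, and 5 of the 6 measured were at 10 TPM or more. *Dnmt3b*, a DNA methyltransferase that naive mESCs also express, led on the exon-length scale at 94.0 ± 26.2 exon-length TPM. It gave 38.2 and 56.0 TPM of these deposited sums. On the exon-length scale it gave 75.4 of 173.9 TPM in replicate 1 and 112.5 of 163.2 TPM in replicate 2. Most of the exon-length sum thus came from *Dnmt3b* in replicate 2 but not in replicate 1.

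**Figure D1:**
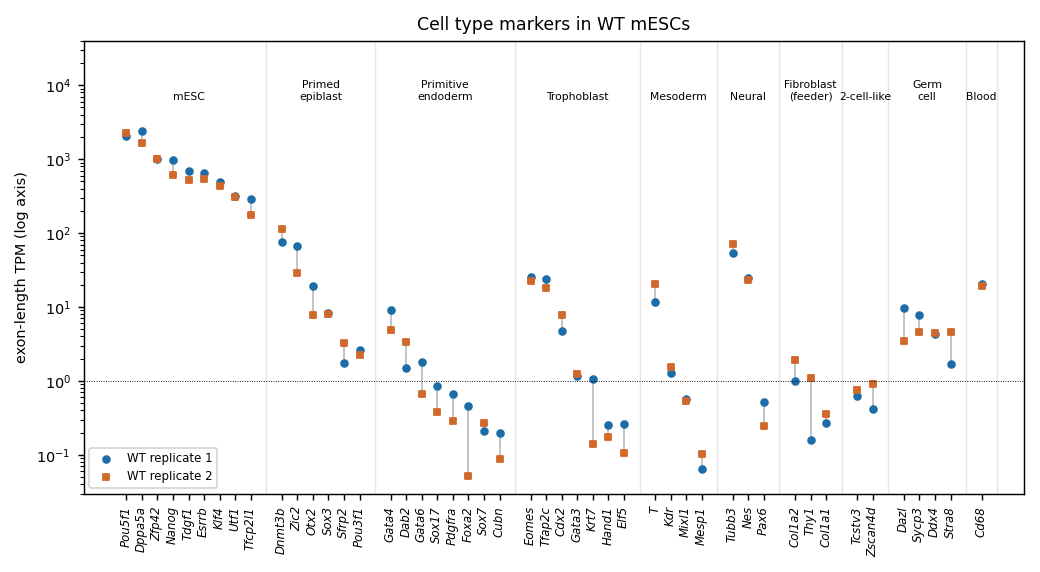
Exon-length TPM (log axis) of the measured marker genes of each cell type, with a circle for WT replicate 1 and a square for WT replicate 2. The dotted line is at 1. The 9 mESC markers lie between 235 and 2191 exon-length TPM on average, and the 8 primitive endoderm and 3 fibroblast markers have mean levels of at most 7.02 and 1.46.

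Transcripts were spread over a wide range. Of the 15034 genes, 11640 (77.4%) had a mean of at least 1 TPM, 6972 (46.4%) at least 10 TPM, 1646 (10.9%) at least 100 TPM and 148 (0.984%) at least 1000 TPM. The 100 genes with the highest mean took 35.6% of all TPM in replicate 1 and 34.8% in replicate 2, and on the exon-length scale the 100 highest took 22.9% and 22.3%. Genes abundant by deposited TPM were compact. The 148 genes over 1000 TPM had a median of 5 exons and a median exon length of 1230 nt. The 3394 genes under 1 TPM had 9 exons and 3173.5 nt. Dividing by the span lowers intron-rich genes whatever their mRNA level, so this contrast in exon number cannot be read apart from the scale. The shorter exon length was also seen on the exon-length scale, where the 100 highest genes had a median of 868.5 nt of exon in 6 exons. Protein-coding genes, 14252 in number, held 96.2% and 94.3% of the TPM.

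The most abundant mRNAs encoded the translation machinery, a chaperone and the cytoskeleton. *Hsp90ab1*, a cytosolic chaperone of the Hsp90 family, had the highest level per exon length, 7804 ± 389 exon-length TPM, and stood at 16570.2 and 15169 TPM. *Eef1a1*, which brings aminoacyl-tRNA to the ribosome, stood at 19707 and 13401 TPM and 6794 ± 1748 exon-length TPM, and *Eef2*, which moves the ribosome along the mRNA, at 10762 and 9604 TPM and 4341 ± 295 exon-length TPM. *Eef1a1* has 4 near-identical copies elsewhere in the genome, at least 95% identical over at least 50% of the transcript. Its reads could be split or shared, and its level is uncertain. The same limit holds for other genes with copies, among them *Rplp1* (4), *Hspa8* (4), *Eno1* (3), *Tmsb10* (2), *Eef2* (1) and *Nanog* (1). *Actb*, cytoplasmic actin, followed at 8295 and 7069 TPM and 3273 ± 329 exon-length TPM, and *Tmsb10*, which binds actin monomers, at 5399 and 7080.4 TPM and 3092 ± 627 exon-length TPM. The glycolytic enzyme *Aldoa* stood at 3623 and 3980.4 TPM and 3053 ± 241 exon-length TPM. *Tubb5*, a beta-tubulin, had 4376 and 4750.3 TPM and 1701 ± 120.0 exon-length TPM.

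The 20 highest genes by deposited TPM also held *Dppa5a*, *Trh*, *Mt2* and *Pcbp1*, none of which was among the 20 highest per exon length. *Dppa5a*, an RNA-binding KH domain protein named for its expression in pluripotent cells, stood at 6114 and 4111 TPM and 2056 ± 545 exon-length TPM, place 37 on that scale, and has 3 near-identical copies. *Trh*, which encodes the precursor of thyrotropin-releasing hormone, stood at 6296 and 3833 TPM and 2127 ± 706 exon-length TPM, place 35. *Mt2*, a metallothionein that binds zinc and copper, stood at 4559 and 3567 TPM and 1559.7 ± 249.9 exon-length TPM, place 57. *Pcbp1*, a single-exon gene for a poly(C)-binding protein, held place 8 by deposited TPM, with 7033 and 7305 TPM, and place 54 per exon length, with 1613 ± 63.4 exon-length TPM. Of the 20 highest genes by deposited TPM, 13 were among the 20 highest per exon length, as were 73 of the 100 highest.

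**Figure D2:**
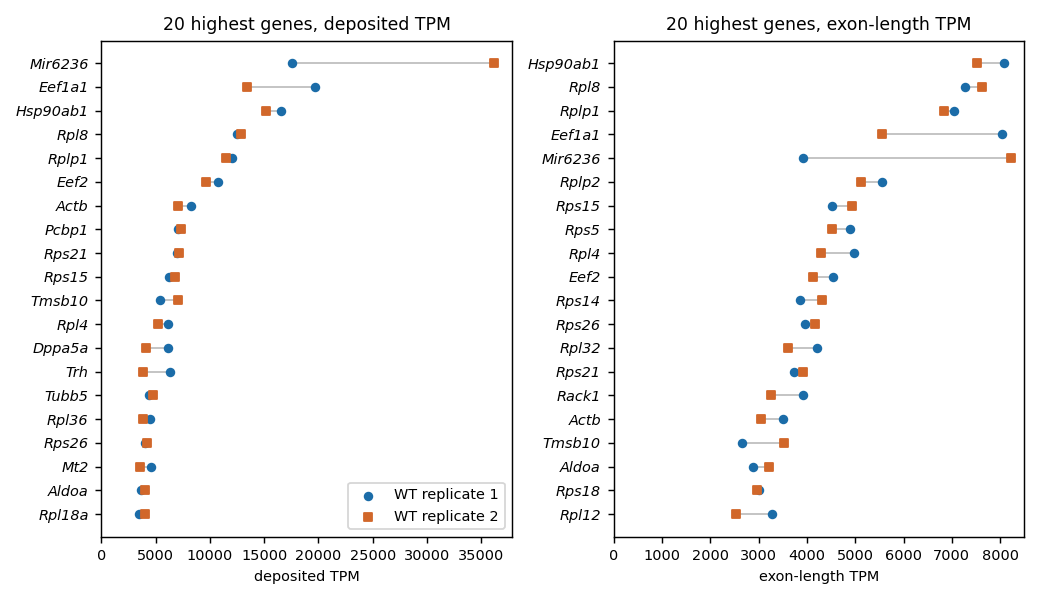
The 20 genes with the highest mean deposited TPM (left, deposited TPM) and the 20 with the highest mean exon-length TPM (right, exon-length TPM), on linear axes, with a circle for WT replicate 1, a square for WT replicate 2 and a line between them. *Mir6236* is first by deposited TPM and *Hsp90ab1* is first per exon length.

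The highest deposited value did not belong to an mRNA. *Mir6236*, a microRNA locus of 123 nt at chr9:110281287-110281409 on the plus strand (GRCm38.p6, the mm10 assembly), had 17606 and 36214 TPM, from 6960 and 9055 inferred reads, and 3924 and 8217 exon-length TPM. Its value in replicate 2 was more than that of any other gene, while in replicate 1 *Eef1a1* was higher. The locus lies whole inside the span of the long non-coding RNA gene *Gm39429*, and these values do not tell a mature microRNA from longer transcripts over the same bases. The mature product that names the locus is shown from RefSeq with the seed, bases 2 to 8, in capitals, at chr9:110281353-110281371 on the plus strand.
mmu-miR-6236: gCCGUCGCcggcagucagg
The 13 microRNA loci measured held 1.98% and 3.88% of all TPM, most of it at this locus.

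Cytoplasmic ribosomal proteins formed the largest group among the abundant mRNAs. The 86 measured genes held 17.9% of the TPM in replicate 1 and 16.2% in replicate 2, and 14.6% and 13.3% per exon length. They made up 47 of the 100 highest genes per exon length. *Rpl8*, of the large subunit, stood at 12501 and 12890.2 TPM and 7447 ± 255 exon-length TPM, and *Rplp1*, of the ribosomal stalk, at 12042 and 11500.1 TPM and 6945 ± 139 exon-length TPM. Not every member was high: *Rpl3l*, a paralogue known from muscle, stood at 1.98 and 2.96 TPM, and *Rpl29*, which has 17 near-identical copies in the genome, at 10.4 and 15.7 TPM. The ribosomal protein genes without such a copy had a median of 668 exon-length TPM (n = 23), those with 1 to 4 copies 1513 (n = 31) and those with 5 or more copies 942 (n = 32). A copy had to cover at least 50% of the transcript, so short copies of a gene with a long transcript could be missed. The group without a copy held *Rps15a* and *Rps20*, with transcripts of 5136 and 3446 nt, and also the paralogue *Rpl3l*. These medians therefore cannot tell whether genes without copies read lower. How reads were shared between copies was not tested.

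Mouse ribosomal protein mRNAs are known to begin within a run of pyrimidines, the terminal oligopyrimidine tract, through which their translation responds to growth signals. The pyrimidine letters CTTTC were searched on the mRNA strand from 30 bases before to 50 bases after the annotated start. Of the 65 ribosomal protein genes whose RefSeq promoter starts at the transcript used, 31 (47.7%) held CTTTC, against 10.3% of all 32851 promoters, 6.35% of 63 oxidative phosphorylation genes and 8.01% of 699 transcription factor genes. The longer run CTCTTTC, which contains CTTTC, was in 13 of the 65 ribosomal protein windows and in 1.08% of all promoters. The letters CCGGAAG, a form of the site of ETS family factors, were searched on both strands of all 300 bases and were in 38.5% of the ribosomal protein promoters, 23.8% of those of oxidative phosphorylation genes and 8.86% of all promoters. Among the 11369 genes measured here with a matched start they were in 16.9%, and among the matched genes of the 1000 highest per exon length in 25.2%. CTTTC was in 7.87% of the same 11369 genes. TATAAA in the 50 bases before the start was in 1 of the 65, and in 2.63% of all promoters.

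A shorter window, from 12 bases before to 18 bases after the annotated start, was not searched in all of these genes. Some were left out by their place in the genome, whatever their level, and were not ranked. Among the genes searched, 18 held CTTTC within this window. Of these 18, the 6 with the highest exon-length level are shown to let the run be seen in its place. The sequences are on the mRNA strand from GRCm38.p6 as RefSeq gives it, with each CTTTC in capitals. The windows are chr7:141447639-141447668 (plus strand) for *Rplp2*, chr10:128626489-128626518 (minus) for *Rps26*, chr11:48800348-48800377 (plus) for *Rack1*, chr2:32961700-32961729 (plus) for *Rpl12*, chr7:45128728-45128757 (minus) for *Rpl13a* and chr2:39005114-39005143 (minus) for *Rpl35*.
Rplp2: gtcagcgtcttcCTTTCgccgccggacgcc
Rps26: gggcaagccgccggatcctCTTTCgagtct
Rack1: aggccgctCTTTCtttttctccacagggtc
Rpl12: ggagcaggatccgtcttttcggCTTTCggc
Rpl13a: accctgcgacaagacctcctcCTTTCccag
Rpl35: ccccgccCTTTCctCTTTCtctcgaaccag
The run begins at the annotated first base in *Rplp2*, before it in *Rack1*, both before and after it in *Rpl35*, which holds a pair of runs, and after it in *Rps26*, *Rpl12* and *Rpl13a*. The levels of these genes ran from 5343 ± 305 exon-length TPM down to 2359 ± 81.4 exon-length TPM.

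Translation factors were abundant as a list. Of 34, 33 were at 10 TPM or more, with a median of 495 exon-length TPM. *Eif5a*, the factor that carries hypusine, stood at 2037 and 2535 TPM and 2087 ± 347 exon-length TPM, while *Eef1a2*, the muscle and neuronal form of the elongation factor, stood at 0.0334 and 0.0527 TPM. All 20 chaperone and folding genes were at 10 TPM or more, with a median of 677 exon-length TPM. *Hspa8*, a cytosolic Hsp70, stood at 3114 and 1590.3 TPM and *Hspa5*, the Hsp70 of the endoplasmic reticulum, at 2682 and 1209.8 TPM, both higher in replicate 1. The 9 chaperonin genes measured, whose products fold actin and tubulin, had 8 at 10 TPM or more.

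Glycolytic genes were all at 10 TPM or more as a mean over both libraries, 17 of 17, with a median of 330 exon-length TPM. The highest was *Aldoa*, and *Pkm*, pyruvate kinase, followed at 1241 and 1388 TPM and 2823 ± 258 exon-length TPM. *Ldha* stood at 1396 ± 102 exon-length TPM, *Eno1* at 1257 ± 129 exon-length TPM and the hexokinase *Hk2* at 490.2 ± 34.4 exon-length TPM, with *Hk1* at 124 ± 13.3 exon-length TPM. *Gapdh* stood at 65.2 and 80.3 TPM. It has 43 near-identical copies in the genome, and its level is therefore uncertain. *Slc2a3*, a glucose transporter, had 1734 and 1722 TPM and 1466 ± 11.3 exon-length TPM, and *Slc2a1* 448 ± 33.0 exon-length TPM. Oxidative phosphorylation genes encoded in the nucleus, 82 measured, held 3.11% and 3.16% of the exon-length TPM, with *Cox4i1* of complex IV at 2019.6 ± 91.1 exon-length TPM. The 48 proteasome genes held 1.17% and 1.24%. No mitochondrially encoded gene was analysed here.

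Transcription factors as a class were expressed at low levels. Of 933 measured, 764 had a mean of at least 1 TPM, and these had a median of 10.7 TPM and 11.9 exon-length TPM, against 15.6 and 27.4 for all genes of at least 1 TPM. The class held 4.10% and 3.62% of all TPM, and 2 of its members were among the 100 highest genes per exon length. For RNA-binding proteins the median of the 276 of 305 genes at 1 TPM or more was 64.3 TPM and 91.9 exon-length TPM. Signalling receptors had 160 of 284 genes at 1 TPM or more, with a median of 8.27 TPM and 10.3 exon-length TPM. The classes hold the genes that their lists name, and a gene can belong to more than 1 class.

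**Figure D3:**
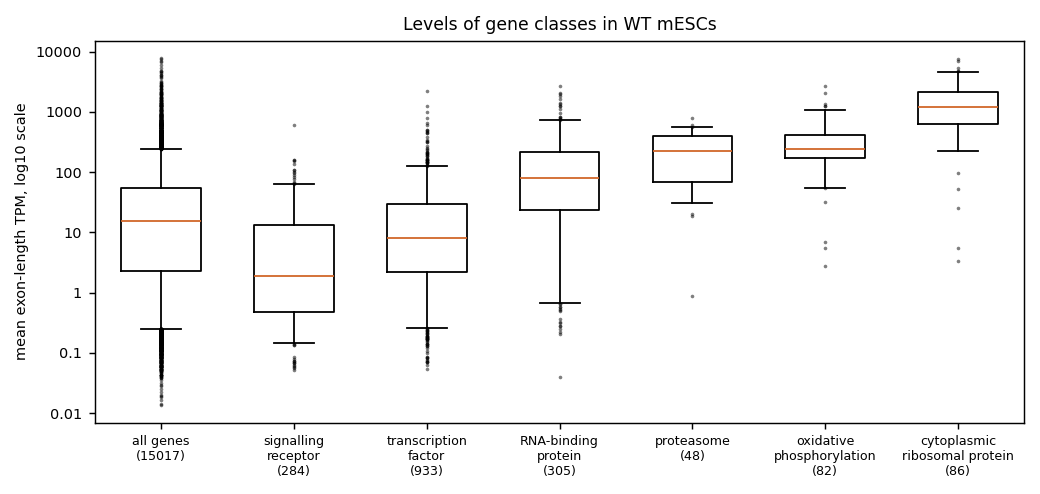
Mean exon-length TPM of the 2 WT libraries (log axis) over every measured gene of each class, with no filter on low values and gene numbers under the class names. Boxes span the quartiles with the median as a line, whiskers run from the 5th to the 95th percentile and points are genes beyond them. Signalling receptors sit lowest and the 86 cytoplasmic ribosomal protein genes highest.

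*Pou5f1*, which encodes Oct4, was the most abundant transcription factor. It stood at 2672 and 2879 TPM and 2191 ± 143 exon-length TPM, place 32 among all genes, and both of its values lay above those of every other factor. *Ybx1*, which binds RNA as well as DNA, followed at 631 and 810.4 TPM and 1273 ± 239.6 exon-length TPM, and then *Zfp42*, the zinc finger protein Rex1, at 671 and 675 TPM and 1004 ± 17.7 exon-length TPM. The ranges of these 3 over the libraries did not overlap. Places 4 to 10 were taken by *Nanog*, *Zfp57*, *Esrrb*, *Trp53*, *Maz*, *Mybl2* and *Klf4*, and here each overlapped its neighbour. *Nanog* stood at 1204 and 749 TPM and 785 ± 249.7 exon-length TPM. *Esrrb*, an orphan nuclear receptor, stood at 78.1 and 63.7 TPM but 594 ± 78.0 exon-length TPM, since its exons are a small share of its span. *Zfp57*, which keeps methylation at imprinted loci, stood at 681 and 567 TPM and 643 ± 74.6 exon-length TPM, and *Trp53*, the gene of p53, at 408 and 321 TPM and 505 ± 78.3 exon-length TPM. *Klf4* stood at 1246 and 1076 TPM and 458 ± 41.7 exon-length TPM.

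Among 30 pluripotency factors, 29 were measured and 28 were at 10 TPM or more. The exception was *Tcf7l1*, the TCF that represses naive genes, at 9.04 and 7.29 TPM but 104 ± 14.4 exon-length TPM. *Klf2* stood at 1490.5 and 1237 TPM and 438 ± 52.0 exon-length TPM, *Klf5* at 247 ± 3.79 exon-length TPM, *Tfcp2l1* at 235 ± 82.8 exon-length TPM and *Tbx3* at 205 ± 69.4 exon-length TPM. *Utf1*, a chromatin-associated factor, stood at 1308 and 1254 TPM and 312 ± 5.44 exon-length TPM. *Sall4* and *Sall1* were at 131 ± 7.71 exon-length TPM and 144 ± 26.8 exon-length TPM. The lowest of the measured factors per exon length was *Dppa3*, a maternal factor that varies between mESCs, at 28.3 and 18.8 TPM and 24.9 ± 6.80 exon-length TPM. *Myc* stood at 48.5 and 77.0 TPM and *Mycn* at 218 and 131 TPM. Of the 29, 22 were higher in replicate 1, with a median log2 ratio of replicate 2 to replicate 1 of -0.276. Over all genes of at least 1 TPM this median was -0.03. The lean was not particular to these factors: 82 of 113 listed RNA-binding proteins were also higher in replicate 1, but only 5 of 17 glycolytic genes.

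**Figure D4:**
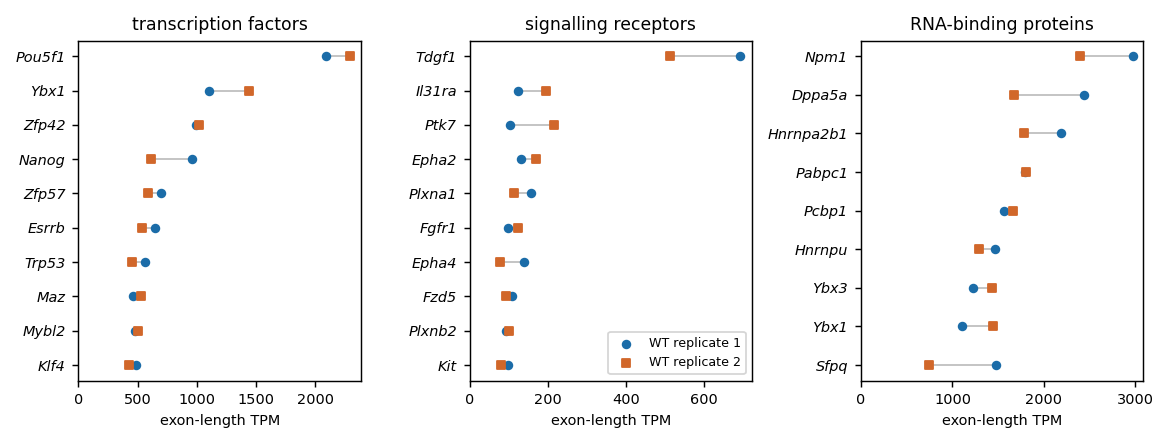
Exon-length TPM of the 10 highest transcription factors and signalling receptors and of 9 of the 10 highest RNA-binding proteins, on linear axes, with a circle for WT replicate 1 and a square for WT replicate 2. By mean, *Pou5f1* leads the factors at 2191, *Tdgf1* the receptors at 604 and *Npm1* the RNA-binding proteins at 2683.

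The families of transcription factors differed in level. In the POU family *Pou5f1* stood apart, since the family's median was 2.55 exon-length TPM over 10 genes. The Klf and Sp family had 20 of 25 genes at 1 TPM or more. Zinc finger genes of the Zfp and Zbtb series were the largest group, with 381 of 422 at 1 TPM or more but a median of 8.29 exon-length TPM. The lowest medians were those of the Sox, GATA, T-box and Hox families, at 0.612, 1.23, 1.47 and 1.83 exon-length TPM. The T-box family also holds *Tbx3*, its highest gene. None of 5 GATA genes reached 10 TPM. Of 26 Hox genes 24 were at 1 TPM or more and 9 at 10 TPM or more. The highest of these per exon length was *Hoxb9*, at 50.5 and 20.6 TPM and 15.5 ± 9.05 exon-length TPM. The 16 Sox genes measured did not include *Sox2*, so the place of the family rests on the others. None of these 16 was at 100 exon-length TPM, and *Sox15* led them at 21.6 ± 2.08 exon-length TPM. Among the other families *E2f4* led the E2F genes at 329 ± 6.96 exon-length TPM, *Atf4* the leucine zipper genes at 383 ± 31.1 exon-length TPM, *Foxp4* the forkhead genes at 159 ± 31.9 exon-length TPM and *Id3* the helix-loop-helix genes at 214 ± 45.5 exon-length TPM. *Etv5*, an ETS factor downstream of ERK, stood at 87.0 and 55.6 TPM and 244 ± 73.1 exon-length TPM.

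*Tdgf1*, the coreceptor Cripto through which Nodal signals, was the highest gene of the receptor class at 915 and 667 TPM and 604 ± 126 exon-length TPM. Its range lay above that of every other receptor. The next was *Il31ra*, a cytokine receptor related to gp130, at 35.6 and 55.2 TPM and 161 ± 50.9 exon-length TPM, followed by *Ptk7*, a co-receptor of Wnt signalling, at 159.7 ± 80.0 exon-length TPM, the ephrin receptor *Epha2* at 150.1 ± 27.6 exon-length TPM, and the semaphorin receptor *Plxna1* at 134 ± 31.0 exon-length TPM. *Fgfr1*, *Epha4*, *Fzd5*, *Plxnb2* and *Kit* held places 6 to 10, and from *Il31ra* on each gene overlapped the next. G protein-coupled receptors, the largest receptor group, had 65 of 124 genes at 1 TPM or more, led by *Adgrl1* at 76.5 ± 21.2 exon-length TPM.

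Components of the Lif pathway were all measured, and all 18 were at 1 TPM or more. *Lifr* encodes the receptor subunit that binds Lif and stood at 13.8 and 14.8 TPM and 22.1 ± 1.30 exon-length TPM. *Il6st*, the gp130 subunit that signals with it, stood at 27.4 and 18.1 TPM and 40.1 ± 11.1 exon-length TPM. Of the kinases, *Jak1* and *Tyk2* had 36.0 ± 5.52 exon-length TPM and 38.3 ± 3.04 exon-length TPM, which overlap in range, and *Jak2* 4.13 ± 0.641 exon-length TPM. *Stat3*, the factor they activate, had 37.5 and 44.7 TPM and 108 ± 14.6 exon-length TPM, while *Stat5a* and *Stat5b* stood at 3.83 ± 0.549 exon-length TPM and 7.60 ± 1.34 exon-length TPM. *Socs3*, a feedback inhibitor that Stat3 induces, stood at 566 and 474 TPM and 141 ± 15.9 exon-length TPM. Among the adaptors that link the receptor to Ras, *Gab1* stood highest at 264 ± 22.5 exon-length TPM.

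Of the FGF pathway, 34 of 35 genes were measured. *Fgf4*, the ligand that mESCs make themselves, stood at 729 and 466 TPM and 171 ± 51.2 exon-length TPM, and *Fgf8*, *Fgf15* and *Fgf17* were at or below 3.69 ± 1.61 exon-length TPM. *Fgfr1* was the only one of 4 FGF receptors at 1 TPM or more, with 38.4 and 48.0 TPM and 110.2 ± 18.7 exon-length TPM. *Fgfr2* stood at 0.185 and 0.170 TPM, *Fgfr3* at 0.324 and 0.481 TPM and *Fgfr4* at 0.624 and 0.740 TPM. Of the kinases, *Map2k1* and *Map2k2*, the genes of MEK1 and MEK2, stood at 167 ± 10.7 exon-length TPM and 141 ± 26.5 exon-length TPM, and *Mapk3*, that of ERK1, at 112 ± 42.3 exon-length TPM. Genes known to respond to ERK were measured despite the MEK inhibitor in the medium. *Spry2*, a feedback inhibitor, stood at 445 and 464 TPM and 239 ± 9.96 exon-length TPM, and *Dusp6*, an ERK phosphatase, at 132 and 82.2 TPM and 36.7 ± 11.7 exon-length TPM. *Etv4* stood at 73.4 and 124 TPM and 149 ± 55.9 exon-length TPM. No culture without the inhibitor was compared.

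In the Wnt pathway all 44 genes were measured and 34 were at 1 TPM or more. Of 5 ligands *Wnt8a* was the only one at 1 TPM or more, with 1.47 and 4.12 TPM. Of 10 frizzled receptors *Fzd5* and *Fzd10* were highest, at 465 and 395 TPM and 353 and 396 TPM, which are 101 ± 10.4 exon-length TPM and 84.4 ± 7.87 exon-length TPM, and *Fzd7* followed at 19.4 ± 2.56 exon-length TPM. These genes have few exons, so their deposited values overstate them beside longer genes. The co-receptors *Lrp5* and *Lrp6* stood at 39.6 ± 2.21 exon-length TPM and 34.7 ± 8.72 exon-length TPM. *Ctnnb1*, the gene of beta-catenin, was the highest of the list at 310.3 and 254 TPM and 474 ± 61.5 exon-length TPM. Of the kinases that CHIR99021 inhibits, *Gsk3a* stood at 112 and 131 TPM and 116 ± 14.5 exon-length TPM and *Gsk3b* at 8.79 and 5.93 TPM and 31.1 ± 8.19 exon-length TPM. Among the DNA-binding partners of beta-catenin, *Tcf7l1* and *Tcf7* stood at 104 ± 14.4 exon-length TPM and 79.6 ± 0.251 exon-length TPM, above *Tcf7l2* at 7.85 ± 0.558 exon-length TPM and *Lef1* at 6.52 ± 2.22 exon-length TPM. Response genes were measured at every level. *Axin2*, a feedback inhibitor, stood at 38.4 and 50.2 TPM and 71.3 ± 14.3 exon-length TPM, *Sp5* at 246 and 355 TPM and 90.5 ± 24.3 exon-length TPM, *Cdx1* at 44.6 and 93.0 TPM and 154 ± 78.1 exon-length TPM, and *T*, the gene of Brachyury, at 13.2 and 22.8 TPM and 16.0 ± 6.23 exon-length TPM.

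The TGF-beta and BMP lists held 31 measured genes, 25 of them at 1 TPM or more. The ligand *Gdf3* stood at 355 and 274 TPM and 156 ± 26.4 exon-length TPM, *Nodal* at 132 and 100.5 TPM and 91.8 ± 16.4 exon-length TPM, its inhibitor *Lefty2* at 156 and 115 TPM and 73.6 ± 15.1 exon-length TPM, and *Bmp4* at 87.1 and 86.9 TPM and 67.9 ± 0.774 exon-length TPM. *Tdgf1* aside, receptors were low, with *Acvr1b* at 39.9 ± 8.40 exon-length TPM, *Bmpr1a* at 26.7 ± 5.14 exon-length TPM and *Tgfbr2* at 2.18 ± 0.644 exon-length TPM. *Smad7*, the inhibitory Smad, was the highest Smad at 92.0 and 62.9 TPM and 112 ± 28.4 exon-length TPM, and *Smad4*, the common partner, had 34.9 ± 5.11 exon-length TPM. *Id3*, a BMP response gene, stood at 670.5 and 487 TPM and was higher in replicate 1, whereas *Id1*, of the same family, stood at 56.4 and 123 TPM and was higher in replicate 2. In the list of 13 insulin and growth factor receptors 6 were at 1 TPM or more. *Kit*, the receptor of stem cell factor, led at 27.6 and 22.3 TPM and 88.3 ± 12.2 exon-length TPM, and *Igf1r* and *Insr* stood at 4.50 ± 0.0498 exon-length TPM and 4.96 ± 0.0939 exon-length TPM. *Pdgfra* and *Egfr*, receptors known from differentiating lineages, stood at 0.427 and 0.182 TPM and 0.108 and 0.158 TPM. Notch receptors were measured, with *Notch1* highest among the 4 at 25.8 ± 3.63 exon-length TPM, and *Hes1*, a target of the pathway that other signals also induce, stood at 254 and 236 TPM and 92.6 ± 3.74 exon-length TPM.

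At the cell surface, *Cdh1*, the gene of E-cadherin, stood at 205 and 163 TPM and 625 ± 92.3 exon-length TPM, and *Cdh2*, that of N-cadherin, at 0.229 and 0.156 TPM and 1.97 ± 0.500 exon-length TPM. *Cd9*, a tetraspanin used as an mESC surface marker, stood at 163 and 114 TPM and 896 ± 210.4 exon-length TPM. *Alpl*, tissue-nonspecific alkaline phosphatase, which is stained to identify mESC colonies, stood at 90.6 and 90.5 TPM and 441 ± 5.01 exon-length TPM. *Fut4*, a fucosyltransferase gene, stood at 0.679 and 0.671 TPM and 0.152 ± 0.000600 exon-length TPM. Among integrins, *Itgb1* stood at 117 ± 20.5 exon-length TPM.

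Among RNA-binding proteins *Npm1*, a nucleolar chaperone of ribosome assembly, was the highest at 1772 and 1399 TPM and 2683 ± 413 exon-length TPM. It has 3 near-identical copies in the genome, as has *Dppa5a*, and *Pabpc1* has 1, so this order is uncertain. *Npm1* was followed by *Dppa5a*, by *Hnrnpa2b1*, a nuclear RNA-binding protein of splicing and transport, at 2366 and 1896 TPM and 1986 ± 285 exon-length TPM, and by *Pabpc1*, the cytoplasmic poly(A)-binding protein, at 1707 and 1681 TPM and 1799 ± 3.11 exon-length TPM. These 4 overlapped each other in order. *Pcbp1* was apart from the genes before and after it, and *Hnrnpu*, *Ybx3*, *Ybx1* and *Sfpq* were among places 6 to 10, where each gene's range overlapped that of the next. *Sfpq*, a paraspeckle protein, differed most between the libraries of these, at 965 and 478 TPM. *Hnrnpa1* stood at 842 and 948 TPM and has 8 near-identical copies. Of 23 hnRNP genes, 22 were at 10 TPM or more, and of 53 DEAD and DEAH helicases 43, led by *Ddx39b*, of mRNA export, at 728 ± 61.7 exon-length TPM. Of the 47 SR and splicing regulators 28 were, led after *Sfpq* by *Srsf2* at 758 ± 185 exon-length TPM.

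RNA-binding proteins linked to let-7 microRNAs, the germ line or ES cells ranged widely. *Lin28a*, which blocks let-7 processing, stood at 108 and 104 TPM and 106 ± 1.49 exon-length TPM, and its paralogue *Lin28b* at 0.881 and 0.667 TPM and 3.01 ± 0.550 exon-length TPM. *Trim71*, the TRIM-NHL protein that the study is about, stood at 34.9 and 34.9 TPM and 80.3 ± 1.00 exon-length TPM, with almost the same value in both libraries. *L1td1*, derived from a LINE-1 element, stood at 814 and 681 TPM and 669.8 ± 76.1 exon-length TPM. Of the IGF2 mRNA-binding proteins, *Igf2bp1* stood at 241 ± 36.0 exon-length TPM, *Igf2bp3* at 118 ± 7.49 exon-length TPM and *Igf2bp2* at 76.0 ± 24.5 exon-length TPM. *Pum2*, a Pumilio repressor, stood at 66.3 ± 11.6 exon-length TPM. *Dazl*, of the germ line, stood at 9.14 and 3.15 TPM, and *Boll*, of the same family, at 16.0 and 7.52 TPM and 196 ± 98.1 exon-length TPM. The muscleblind genes, which favour splicing patterns of differentiated cells, stood at 10.5 ± 4.62 exon-length TPM for *Mbnl1*, 17.5 ± 0.188 exon-length TPM for *Mbnl2* and 1.43 ± 0.159 exon-length TPM for *Mbnl3*. Of the Argonautes, which carry microRNAs, *Ago1* and *Ago2* stood at 63.3 and 55.9 TPM and 28.2 and 21.6 TPM, which are 61.8 ± 4.69 exon-length TPM and 58.0 ± 10.2 exon-length TPM, while *Ago3* and *Ago4* were at 4.23 ± 1.58 exon-length TPM and 0.487 ± 0.0125 exon-length TPM. *Drosha*, which cuts microRNA precursors in the nucleus, stood at 43.6 and 42.3 TPM and 234 ± 2.19 exon-length TPM.

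Chromatin regulators of mESCs were described with lists chosen after values had been seen. *Dnmt3l*, a cofactor of de novo DNA methylation without activity of its own, stood at 156 and 202 TPM and 472 ± 91.2 exon-length TPM. *Dnmt1*, which maintains methylation, stood at 282 ± 50.5 exon-length TPM, *Dnmt3b* at 94.0 ± 26.2 exon-length TPM and *Dnmt3a* at 13.0 ± 4.58 exon-length TPM. *Tet1* and *Tet2*, which oxidise methylcytosine, stood at 84.8 ± 16.4 exon-length TPM and 91.0 ± 9.57 exon-length TPM, and *Tet3* at 6.89 ± 0.626 exon-length TPM. Of 25 Polycomb genes 24 were measured, each at 1 TPM or more. *Epop*, a partner of the PRC2 complex, stood at 2849 and 3663 TPM and 733 ± 139 exon-length TPM, *Jarid2* at 519.8 ± 147 exon-length TPM, and the methyltransferase *Ezh2* at 243 ± 19.7 exon-length TPM against 21.4 ± 1.44 exon-length TPM for *Ezh1*. Of 23 replication and mitosis genes, 22 were at 10 TPM or more, with *Mcm5*, of the replicative helicase, at 739 ± 3.21 exon-length TPM. *Ccnd2*, a D-type cyclin, was below 10 TPM and stood at 1.90 and 1.49 TPM, with *Ccnd1* at 74.9 ± 8.89 exon-length TPM and *Ccnd3* at 177 ± 34.4 exon-length TPM.

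The study also mapped binding of Trim71 to RNA by CLIP-seq, and its peaks were used here only to name transcripts whose level could be looked up. Of 498 deposited peaks, 154 were annotated to a 3′ untranslated region, in 126 genes, and 106 of these genes were measured here. Each of the 106 was at 1 TPM or more, as were 77.4% of all genes. The median of the 106 was 76.0 exon-length TPM, with a range from 5.08 to 1986. It was 15.4 for all genes and 27.4 for all genes of at least 1 TPM. The part that the abundance of an RNA has in the detection of its peaks was not tested. Of the 106 genes 20 were among the 1000 highest, and 7 were transcription factors, 4 RNA-binding proteins and 2 receptors. Of all 15034 genes, 933 were transcription factors, 305 RNA-binding proteins and 284 receptors. Whether the 106 genes differed from these shares was not tested. *Hnrnpa2b1*, *Serbp1*, *Hspa9*, *Cdkn1a* and *Klf4* were among the highest of them. The peak of *Klf4* held only 7 reads, while the peaks of each other gene named here held 1146 reads or more. *Cdkn1a*, the gene of the cell cycle inhibitor p21, stood at 471 and 387 TPM and 483 ± 61.5 exon-length TPM.

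Most genes differed little between the libraries. Across the 11640 genes whose mean reached 1 TPM, levels on the log2(TPM + 1) scale had a Pearson's r of 0.978 and Spearman's rho of 0.974 across genes, which are not independent replicates. The median absolute log2 ratio between the libraries was 0.27, and 9098 genes (78.2%) lay within 0.5. A difference of more than 1 was seen in 417 genes (3.58%), of which 188 were higher in replicate 1 and 229 in replicate 2. With 1 pair of libraries these differences have no test.

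Among genes whose mean reached 10 TPM, those furthest apart were immediate early genes on one side and histones on the other. *Egr1*, an immediate early transcription factor of growth factor signalling, stood at 2481 and 68.3 TPM, from 29906 and 521 inferred reads, a ratio of 36.3. *Fos* stood at 459 and 27.9 TPM, *Fosb* at 41.6 and 3.88 TPM, *Ctgf*, a secreted target of the same signals and of YAP, at 719.7 and 134 TPM, and *Sox21* at 48.7 and 7.38 TPM. In a list of immediate early genes chosen after these values were seen, 22 of 24 measured genes were higher in replicate 1, with a median log2 ratio of replicate 2 to replicate 1 of -1.003, against -0.03 over all genes of at least 1 TPM. *Myc* and *Nr4a1* were the other 2. The mean of *Egr1* among the ERK-responsive factors therefore rests on replicate 1.

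Genes that p53 is known to induce, a list also chosen afterwards, were higher in replicate 1 in 17 of 19 cases. Their median log2 ratio was -0.68, against -0.03 over all genes of at least 1 TPM. *Ccng1* stood at 488 and 151 TPM, *Trp53inp1* at 128 and 41.3 TPM and *Mdm2*, which degrades p53, at 109.9 and 53.1 TPM, whereas *Bax* stood at 567 and 646 TPM. *Trp53* itself stood at 408 and 321 TPM.

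Most replication-dependent histone genes went the other way, with 45 of 50 higher in replicate 2 and 5 higher in replicate 1. The 50 measured genes had a median of 4.26 TPM in replicate 1 and 17.5 TPM in replicate 2, among those at 1 TPM or more. Over all genes of at least 1 TPM the medians were 15.6 and 15.4 TPM. Several of the histone genes rest on few reads, such as *Hist1h2bf* on 1 and 6 inferred reads, and *Hist1h2al* is annotated as a transcribed pseudogene. *Hist1h1c*, a linker histone and the highest of them per exon length, was among the exceptions at 112 and 83.5 TPM. *Hist2h4* stood at 2.44 and 53.9 TPM, from 3 and 42 inferred reads, *Hist1h2bj* at 2.91 and 46.0 TPM and *Hist1h2ac* at 3.20 and 30.4 TPM. Their mRNAs end in a stem-loop and lack a poly(A) tail, and genes of 1 histone type are close copies of each other, so single members are uncertain. *Chac1*, a stress-induced enzyme of glutathione breakdown, was also higher in replicate 2, at 3.33 and 21.0 TPM. Among other short RNAs, *Rmrp*, the RNA of RNase MRP, stood at 435 and 1685 TPM and *Mir6236* was 2.06-fold higher in replicate 2, whereas the 3 snoRNA genes summed to 989 and 791 TPM. The cause of these differences was not tested.

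**Figure D5:**
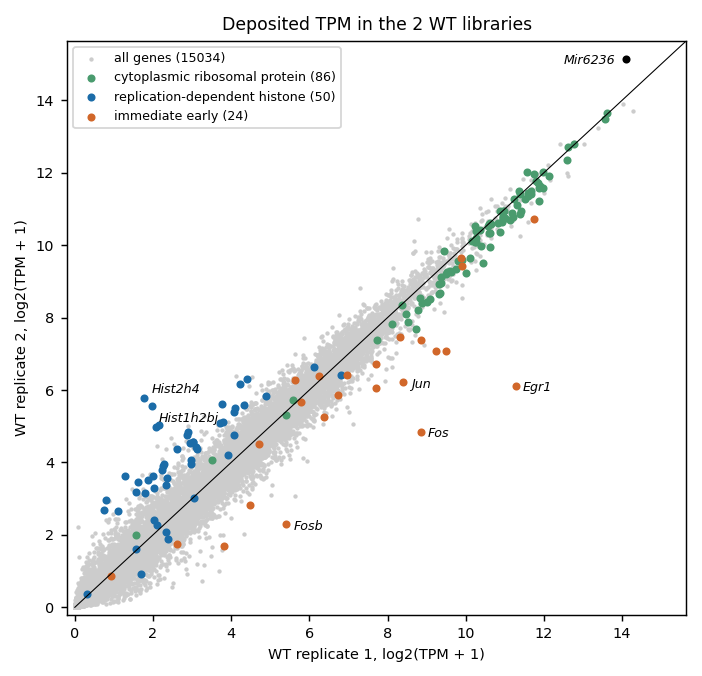
log2(TPM + 1) of the 15034 genes in WT replicate 1 (x axis) and WT replicate 2 (y axis), with 24 immediate early, 50 replication-dependent histone and 86 cytoplasmic ribosomal protein genes coloured, and *Mir6236* in black. The line marks equal values. Most genes lie along the diagonal, *Egr1* lies far below it at 2481 and 68.3 TPM, and most histone genes lie above it.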

How the data were processed

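The 2 WT RNA-seq libraries were used, and the other 10 sample columns of the same table were not. Per the labels and methods, total RNA was extracted with Trizol and made into strand-specific libraries. The authors aligned them with HISAT2 2.1.0 (mm10), took HTSeq counts for a gene's longest transcript, and deposited the resulting TPM of each library. Trim71 CLIP-seq peaks were deposited as counts of reads per peak over both replicates and served only to name genes.

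TPM was kept as deposited, and exon-length TPM was derived with mm10 RefSeq (GRCm38.p6), a step chosen after the values were seen. Symbols matched 14758 genes and synonyms brought this to 15017. Near-identical copies (at least 95% identity over at least 50% of the transcript) were searched with minimap2 2.31-r1302 for 798 transcripts, and 199 had one. Protein-coding genes lying inside another gene's span were seldom measured: 12 of 225 (5.33%) on the same strand and 22 of 290 (7.59%) on the opposite one, against 13976 of 20479 (68.2%) elsewhere, and *Sox2* lies inside *Sox2ot*.

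The depth, inferred from the steps of low values, was 34564445 and 20971731 reads, and n = 2 allows a spread but no test, so no p-value was computed. The step search was tested on simulated data. The lists, classes and the libraries themselves were chosen with earlier results of these data known. Genes named are the 20 highest by mean TPM, the 10 highest of each class, the highest of each family, list members, and the 5 highest and 5 lowest ratios between libraries, and *Rpl3l*, *Rpl29*, *Cox4i1* and *Rmrp* were added after their values were seen. Analyses used Python 3.11.15 with numpy 2.4.6 and pandas 2.3.3, and figures matplotlib 3.10.9. Alternatives changed the pseudocount (1 to 0.1), the filter, the length and the libraries. Proteins were not used here, and some genes of the lists are not reported here.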

Additional observations from a re-analysis of the deposited data

How the results depend on the processing

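The values with 2 libraries have no test, and 15 of the 35 alternatives moved a value by no more than the spread between libraries or by less than 1.5 times for a count. Per exon length, a scale chosen after seeing the data, the share of the 100 highest genes was 22.6% in place of 35.2%, that of ribosomal proteins 13.9% in place of 17.0%, the medians of transcription factors, receptors and RNA-binding proteins were 11.9, 10.3 and 91.9 TPM in place of 10.7, 8.27 and 64.3, 13 of the 20 highest genes were shared, and the correlation and median absolute log2 ratio of the libraries were 0.977 and 0.28 in place of 0.978 and 0.27. Without *Mir6236* the 100 highest genes held 33.5%. With a pseudocount of 0.1 the correlation was 0.974 and the ratio 0.30, and with no filter 0.986 and 0.22, the latter with class medians of 6.92, 1.69 and 49.0 TPM. Without immediate early genes and histones, an alternative also added later, the correlation was 0.980. Leaving out either library gave medians of 9.77 to 10.7 TPM for transcription factors, 7.97 to 8.20 for receptors and 59.6 to 64.3 for RNA-binding proteins, 34.9% to 35.8% for the 100 highest genes, 16.2% to 17.9% for ribosomal proteins, 18 to 19 shared genes among the 20 highest and 11505 to 11632 genes at 1 TPM or more. A rescaling without mitochondrially encoded genes could give no other value, since 0 were measured. No paired analysis was possible because no test was made. Depth limits the low genes, since values of long genes under 1 TPM rest on few reads.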

Other observations

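Long non-coding RNAs, 611 measured, held 1.00% and 0.848% of the TPM. *Meg3*, a maternally expressed imprinted RNA of chromosome 12, stood at 147 and 132 TPM and 502 ± 31.8 exon-length TPM, and *Rian* and *Mirg*, of the same locus, at 128 ± 6.04 exon-length TPM and 64.5 ± 1.54 exon-length TPM. *Malat1*, a nuclear RNA of speckles, stood at 959 and 369 TPM, and *Snhg1*, a host of small nucleolar RNAs, at 442 and 263 TPM. *H19* and *Igf2*, which share an imprinted control region, stood at 91.0 and 59.2 TPM and 1.40 and 0.643 TPM. Among paternally expressed imprinted genes *Peg10*, derived from a retrotransposon, stood at 520.4 and 667 TPM and 265 ± 49.6 exon-length TPM, *Mest* at 118 and 161 TPM and 197 ± 45.2 exon-length TPM, and *Peg3* at 22.4 and 23.1 TPM. Of 24 imprinted genes listed, a list chosen after values had been seen, 19 were measured and 12 were at 10 TPM or more.

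Levels also differed by chromosome, as a description without a test. Over genes of at least 1 TPM, the median exon-length level was highest among the autosomes on chromosome 8, at 40.7 TPM over 662 genes, followed by chromosome 6 at 33.7 over 559. It was lowest on the X chromosome, at 15.3 over 390 genes. A cause was not tested. *Mylpf*, a fast muscle myosin light chain singled out after its values were seen, stood at 756 and 1392 TPM and 2002 ± 861 exon-length TPM, place 40 per exon length. *Rhox5*, a homeodomain gene of the X chromosome, stood at 16.7 and 24.1 TPM and 310.0 ± 83.2 exon-length TPM.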
